A study of Mus musculus with 6 samples.

Results

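Promoters with more open chromatin in cells without Cebpa and Cebpb were examined in MLL-ENL–transformed mouse fetal liver cells. The members were selected on the ATAC-seq values themselves. A listed region was taken when its nearer edge lay within 1 kb of the start site of a protein-coding transcript, when the authors' mean in dKO exceeded that in WT, and when both means exceeded a floor at a log2 level of 1.43, the level of 3 reads in each library. This rule gave 656 of the 10016 listed regions, nearest to the start sites of 607 genes. Of all listed regions, 60.3% were higher in dKO, irrespective of position. Of the 656, 102 lay on chromosome 10, which is described apart, and 554 on the other chromosomes. A further 13 promoter regions were higher in dKO but at or under the floor in WT, and they were left out.

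Both groups were derived from the livers of Cebpa fl/fl/Cebpb fl/fl fetal mice, transformed with a retrovirus carrying MLL-ENL, and maintained in interleukin 3. WT cells kept both genes, and per the labels no vector was added. The dKO cells carried Cebpa KO and Cebpb KO alleles after treatment with a cell-permeable Cre protein, and in addition expressed GFP. The dKO lines were expanded from single clones, so that clonal differences, the vector and the genotype cannot be told apart. Each group had 2 libraries, and the third group of the series, dKO cells with rat C/EBPβ LAP*, was not analysed here. Each region carries 1 mean of normalised reads per group, on a log2 scale, and neither a value per library nor an error. Whether the libraries of the groups overlapped at a region can therefore not be given, and no test between the groups was made here.

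A promoter is the stretch of DNA at which transcription of a gene begins. Active promoters are kept free of nucleosomes, and the Tn5 transposase used in ATAC-seq inserts into such open DNA. Many mammalian promoters lie in CpG islands and are open in most cell types, whereas CpG-poor promoters tend to open in particular lineages. C/EBPα and C/EBPβ are bZIP transcription factors that direct myeloid commitment together with the ETS factor PU.1 and with RUNX1, while AP-1 is formed by bZIP proteins of the FOS and JUN families.

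Promoter stretches of 6 members are printed first, because they show matches of the 4 short motifs that are counted in the members below, of which AP-1 and PU.1 separated members from promoters that were lower in dKO. They are the members with a difference of at least 2 and the most matches of AP-1, PU.1, RUNX and C/EBP, and the most strongly increased members with any such match, as far as a stretch upstream of the start site and outside annotated exons was at hand. Each is read 5′ to 3′ towards the gene on mm10, and capitals mark matches of TGAGTCA or TGACTCA for AP-1, GAGGAAGT for PU.1, AACCACA for RUNX and TTGCNNAA or TTACNNAA for C/EBP, on either strand.
Kcnn4 (chr7:24369962-24370121, plus strand): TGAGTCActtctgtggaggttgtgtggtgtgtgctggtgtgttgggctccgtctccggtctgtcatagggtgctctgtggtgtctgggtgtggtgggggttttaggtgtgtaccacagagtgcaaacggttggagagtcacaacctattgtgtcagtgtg
Dkkl1 (chr7:45212148-45212302, minus strand): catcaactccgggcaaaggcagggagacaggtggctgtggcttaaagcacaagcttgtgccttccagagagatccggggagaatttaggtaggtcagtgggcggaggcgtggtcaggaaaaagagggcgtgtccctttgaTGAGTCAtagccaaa
Vav3 (chr3:109573747-109573906, plus strand): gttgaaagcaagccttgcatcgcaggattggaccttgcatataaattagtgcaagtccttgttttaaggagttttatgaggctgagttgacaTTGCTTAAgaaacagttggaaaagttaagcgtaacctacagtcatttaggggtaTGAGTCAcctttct
Cyp2a5 (chr7:26835140-26835299, plus strand): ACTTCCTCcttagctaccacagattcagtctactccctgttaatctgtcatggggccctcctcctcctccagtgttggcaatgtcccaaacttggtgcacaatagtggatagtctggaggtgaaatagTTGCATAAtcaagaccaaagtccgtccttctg
Otogl (chr10:107913012-107913171, minus strand): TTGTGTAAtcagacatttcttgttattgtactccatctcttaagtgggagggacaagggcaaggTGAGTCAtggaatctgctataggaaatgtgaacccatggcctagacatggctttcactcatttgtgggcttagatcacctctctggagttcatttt
Adra1a (chr14:66634686-66634845, plus strand): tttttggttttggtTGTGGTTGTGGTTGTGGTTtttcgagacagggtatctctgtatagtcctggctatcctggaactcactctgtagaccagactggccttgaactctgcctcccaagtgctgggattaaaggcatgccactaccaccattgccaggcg

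The Kcnn4, Dkkl1, Vav3 and Otogl stretches each held 1 AP-1 match. In Vav3 and Otogl a C/EBP match lay beside it, and in Cyp2a5 a C/EBP and a PU.1 match occurred together. The 3 RUNX matches of Adra1a overlapped by 1 base each within a single repeated run, so they are not separate sites. In Dkkl1 the AP-1 match lay outside the central 200 bp used for counting, and the match that qualified this region was a C/EBP match outside the printed stretch. Kcnn4 encodes a calcium-activated potassium channel, Vav3 a guanine nucleotide exchange factor, Cyp2a5 a cytochrome P450 and Adra1a an adrenergic receptor. The Vav3 region covered an alternative start site, 233254 bp from the first start site of the gene.

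The increase at these promoters was graded. Over the 656 members, the authors' means ran from 1.54 to 9.96 in WT (median 5.80) and from 4.28 to 10.48 in dKO (median 7.08, all log2 levels). The difference, dKO minus WT, had a median of 1.15, quartiles of 0.80 and 1.66, and a range of 0.49 to 4.95. At least 2-fold higher levels were found at 394 members, a difference of 2 or more at 110, of 3 or more at 31 and of 4 or more at 11. Only 57 members had a WT level of 3 or less. The rule itself required a WT level above the floor, and no level of closed chromatin was at hand for comparison. Whether the members were already partly open in WT cells was therefore not tested. Members with a WT level up to 4 (n = 120) had a median difference of 2.32, those between 4 and 6 (n = 240) of 1.35, those between 6 and 8 (n = 230) of 0.83, and those above 8 (n = 66) of 0.59. The list holds only regions past the authors' corrected P-value of 0.05, and no member with a WT level up to 4 differed by less than 1.36.

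The share of promoters that were higher in dKO was not above that of all listed regions, 60.3% of which were higher and 49.6% at least 2-fold higher. Among the 1181 protein-coding promoter regions above the floor, 656 were higher and 525 lower, a share of 55.5% (95% Wilson interval 52.7% to 58.4%). Without chromosome 10, it was 554 of 1060 or 52.3% (49.3% to 55.3%). Among promoter regions with a difference of at least 1 in either direction, 48.3% were higher (44.9% to 51.7%), against 58.0% of all listed regions with such a difference, to which no floor was applied. Of all 1181, 33.4% were at least 2-fold higher, the share to be set beside the 49.6%. With all differences centred on the median of all listed regions (0.98), 34.1% of promoter regions with a difference other than 0 were above it (31.4% to 36.8%). Centring turns every member with a smaller difference by construction. Since the rule used these values, the shares are a description. For the members, more cells with an open promoter in dKO and a greater degree of opening in each cell cannot be told apart in such bulk samples.

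**Figure D1:**
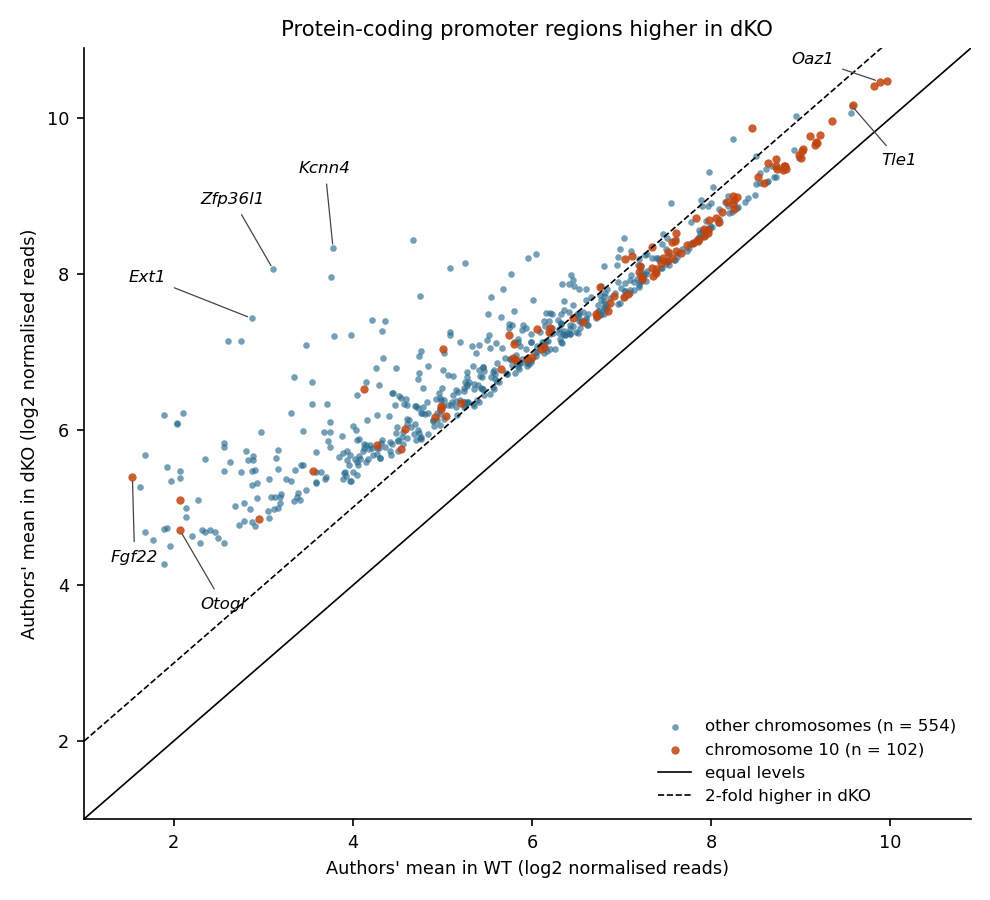
Authors' mean of normalised reads in WT (horizontal axis, log2) and in dKO (vertical axis, log2) for each of the 656 member regions, as 1 point per region, with chromosome 10 in orange and named examples. All points lie above the line of equal levels by construction, the largest gaps are at low WT levels (Zfp36l1, 3.11 against 8.06), and chromosome 10 regions crowd at high levels below the 2-fold line.

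Promoters with low WT levels led the list outside chromosome 10. At the Zfp36l1 promoter (chr12:80112813-80113560), the authors' mean was 3.11 in WT and 8.06 in dKO, which corresponds to 8.63 and 267 normalised reads and a 30.9-fold difference. Zfp36l1 encodes an RNA-binding protein that promotes decay of AU-rich mRNAs. The Ext1 promoter (chr15:53345992-53346591), of a heparan sulfate polymerase, had a log2 level of 2.87 in WT and 7.43 in dKO, a 23.6-fold difference. Kcnn4 (chr7:24369757-24370328) was close behind, with 3.78 in WT and 8.33 in dKO, or 23.4-fold. All 3 regions covered the first start site of their gene.

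Several of the next members lay at alternative start sites or had a neighbour. A region 50 bp downstream of a start site of the olfactory receptor gene Olfr1264 had levels of 2.61 in WT and 7.14 in dKO. At Arhgef33, which encodes a guanine nucleotide exchange factor, 2.75 in WT stood against 7.14 in dKO, at a start site 66251 bp from the first one of the gene. Snx7, a sorting nexin gene, had 2 such regions whose centres were 652 bp apart, one with 3.76 in WT and 7.96 in dKO and the other with 1.89 and 6.19. The promoters of Dkkl1 (2.11 and 6.21) and of the zinc finger gene Zfp995 (2.04 and 6.08) differed by 4.10 and 4.04.

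Chromosome 10 stood apart in the number, the level and the size of the differences. It held 102 members and 19 lower promoter regions, so that 84.3% of its 121 promoter regions above the floor were higher in dKO (95% Wilson interval 76.8% to 89.7%). On each of the other chromosomes, 34.5% to 71.0% were higher, with between 10 and 50 members. Relative to annotated protein-coding genes, there were 9.99 members per 100 genes on chromosome 10 against 1.05 to 5.31 elsewhere. The same tilt was present over all listed regions, of which 629 of 767 or 82.0% were higher on chromosome 10 and 5406 of 9249 or 58.4% elsewhere.

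**Figure D2:**
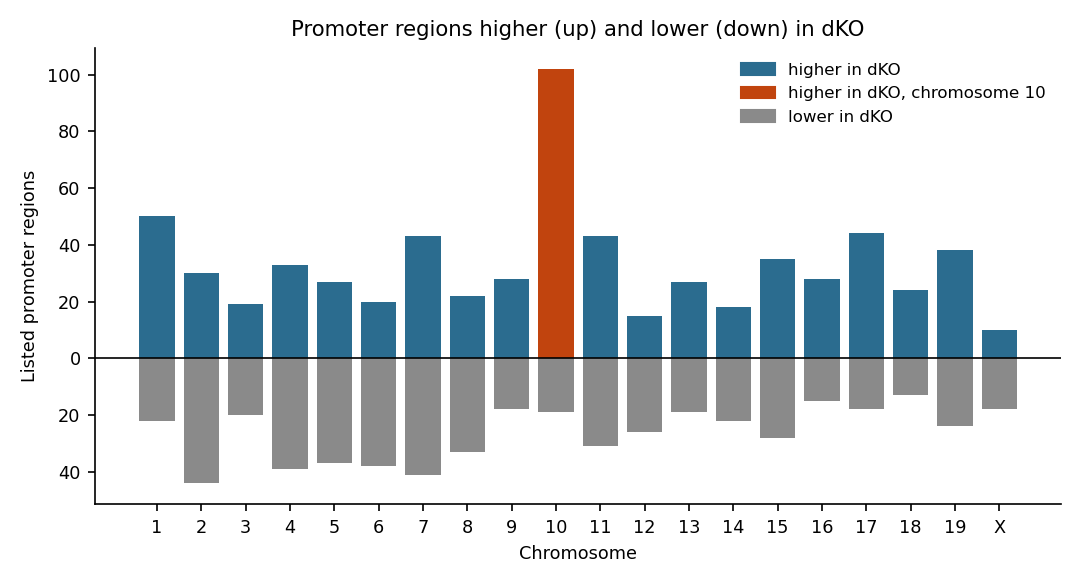
Number of listed protein-coding promoter regions per chromosome, with regions higher in dKO drawn upwards and regions lower in dKO downwards. Chromosome 10 (orange) has 102 higher and 19 lower regions, and the next highest count of higher regions is 50, on chromosome 1.

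Members on chromosome 10 were mostly strong promoters with small differences. Their median log2 level was 7.52 in WT and 8.25 in dKO, against 5.51 and 6.88 for the other members, and their median difference was 0.73 against 1.25. A difference under 0.8 was found at 61 of the 102, and at 102 of the 554 others. Among promoter regions with a WT level above 8, 34 of 38 on chromosome 10 were higher in dKO, but only 32 of 118 on the other chromosomes. In 5 parts of equal length from the start of the chromosome, the members numbered 7, 5, 39, 33 and 18, or 5.43, 4.39, 18.3, 11.1 and 6.74 per 100 coding genes. The lower promoter regions in these parts numbered 3, 2, 5, 4 and 5. Whether the dKO clones carried more copies of this chromosome than WT cells was not tested.

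**Figure D3:**
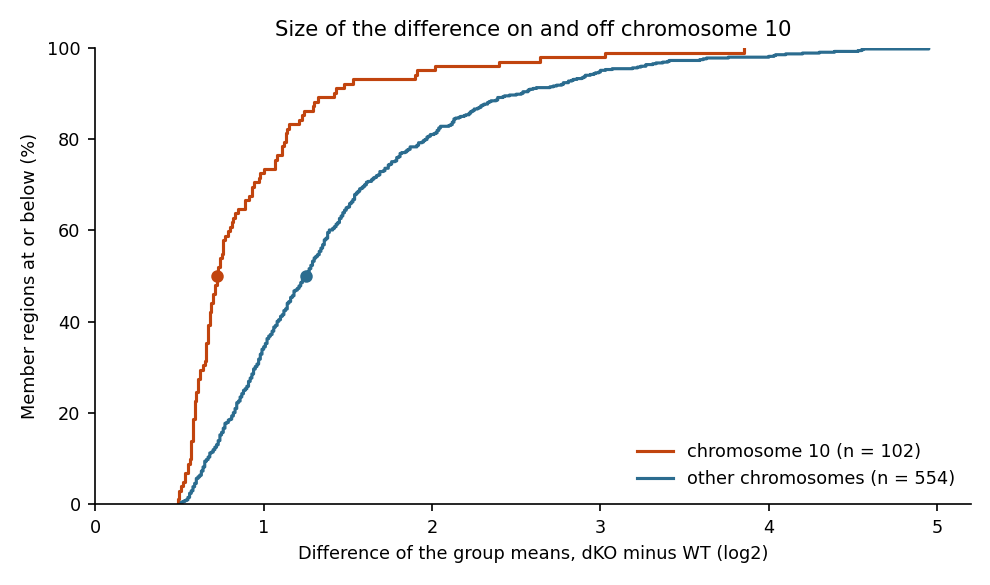
Cumulative share of members (vertical axis, percent) with a difference of the group means, dKO minus WT (horizontal axis, log2), at or below a given size, for the 102 members on chromosome 10 and the 554 others. Dots mark the medians of 0.73 and 1.25, and the chromosome 10 curve rises steeply between 0.49 and 0.8.

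Of the 5 members with the highest dKO level, 4 were on chromosome 10. Gtf3c6, a subunit of the RNA polymerase III factor TFIIIC, had a log2 level of 9.96 in WT and 10.48 in dKO. Oaz1, the antizyme that limits polyamine synthesis, had 9.88 and 10.47, and the kinase gene Dapk3 9.82 and 10.41. B4galnt1, a ganglioside synthase gene, had 9.58 and 10.17. Their differences were 0.52, 0.59, 0.59 and 0.59, or 1.43-fold to 1.51-fold. The remaining one, the Groucho co-repressor gene Tle1 on chromosome 4, had 9.57 and 10.16, likewise 1.51-fold.

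Some chromosome 10 members nevertheless differed much more. The largest difference was at the growth factor gene Fgf22 (chr10:79754906-79755210), with 1.54 in WT and 5.39 in dKO, and it was also the member with the lowest WT level. A region 615 bp from the start site of 4933416C03Rik had 2.07 and 5.10, and one 870 bp upstream of Otogl, the otogelin-like gene, had 2.07 and 4.71. The promoters of Tph2, the tryptophan hydroxylase of serotonin synthesis in neurons, and Slc16a7, a monocarboxylate transporter gene, had differences of 2.40 and 2.02. Hence, 28 of the 102 reached 2-fold, compared with 366 of the 554 elsewhere.

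Promoters of the 1026 genes on 21 functional lists were then examined. Of these genes, 81 had a higher and 33 a lower promoter region, in 96 and 38 regions, and 71.6% of the list regions were thus higher against 55.5% of all promoter regions. The median difference of the 96 was 1.14, close to that of all members. The lists were drawn up with earlier results of these data known, so this share is no independent evidence. Genes without a listed region cannot be separated into unchanged and untested ones.

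Transcription factors of stem and progenitor cells formed one of the lists with the most members. Of 40 genes, 7 had a higher promoter region and 1 a lower one, in 11 and 1 regions, and the median difference of the higher ones was 2.22. The E protein gene Tcf4 was represented by 4 regions spread over 249114 bp, with WT levels of 3.55 to 4.67 and dKO levels of 5.97 to 8.43. Mycn, the MYC family gene expressed in stem cells, had a region 423 bp upstream of its start site with 2.35 in WT and 5.62 in dKO. Hoxa10, a posterior HOXA gene of the MLL fusion program, had one 663 bp upstream with 2.63 and 5.59. Smaller differences were found at Erg (1.79), Gata2 (1.53 and 1.11) and Pbx3 (0.74), and none of the 11 was on chromosome 10. The lower region lay at Hoxa3 and an overlapping gene model, with 8.66 in WT and 7.80 in dKO.

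Of 50 genes of granules and phagocytes, 9 had a higher and 1 a lower promoter region, and the other 40 had none above the floor. Irf8, which encodes the interferon regulatory factor of monocyte development, had 3.31 in WT and 6.21 in dKO (chr8:120736052-120736472), a 7.46-fold difference. Ly6c2, the gene of a monocyte surface antigen, had 2.87 and 5.29, the resistin family gene Retnlg 4.47 and 6.32, and the sialic acid receptor gene Cd33 5.53 and 7.05 at that of its 2 regions with the larger difference. Cd177, a neutrophil surface antigen gene, went the other way, from 5.30 in WT to 3.10 in dKO. Of the 11 higher regions on this list, 2 were on chromosome 10, both at Itgb2.

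Markers of other blood lineages were among the members as well. The mast cell and basophil list had 3 of 40 genes with a higher region and none with a lower one, namely Ltc4s, the leukotriene C4 synthase gene (4.71 and 6.30), Gata2 (5.00 and 6.53) and Fcer1g, the common Fc receptor chain (6.63 and 7.49). Of 40 erythroid and megakaryocyte genes, 4 had a higher and none a lower region. These counts are too small to set against the 55.5% of all promoter regions that were higher. The platelet integrin gene Itga2b had a region 151 bp upstream of its start site with 1.93 in WT and 5.52 in dKO, a 12.04-fold difference, and the thrombin receptor family genes F2rl2 and F2r had differences of 2.12 and 1.12, with Car2, a carbonic anhydrase gene, at 1.16. On the T and NK cell list, Havcr2 (4.93 and 6.40), Tnfrsf9 (5.89 and 7.28) and Cd5 (6.22 and 7.49) were higher, while Il2ra, the interleukin 2 receptor alpha chain, was lower (6.89 and 4.71). Of B cell genes, Ebf1, a factor of B cell commitment, had 5.09 and 7.26, and Cd24a, on chromosome 10, had 7.61 and 8.52. Of 10 marker genes of myeloid progenitors chosen to check the label of the cells, only Cd34 had a listed promoter region above the floor, with 2.81 in WT and 5.72 in dKO. The share of cells of each lineage in the cultures was not measured, and its part in these differences was not tested.

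Of 52 integrin, selectin and adhesion genes, 7 had a higher and 1 a lower region, with 2 of the 9 higher regions on chromosome 10. Next to Itga2b and Cd34, these included Itgax, the integrin alpha chain of dendritic cells (2.75 and 5.45), and Itgb7, an integrin beta chain of gut homing (4.44 and 6.47), whereas Itga1, whose region also lies at an overlapping gene model, was lower (5.80 and 4.38). The chemokine list had 3 higher regions among 40 genes and no lower one, at the chemokine genes Ccl2 (3.31 and 5.34) and Ccl4 (4.41 and 5.73) and the receptor gene Ccr1 (5.61 and 6.86). For guidance molecules, 5 of 54 genes had higher and 2 had lower regions, with the netrin receptor gene Unc5a (2.89 and 5.61) and Epha2 (2.46 and 4.69) higher, and the ephrin receptor gene Ephb3 lower (9.70 and 6.33). Of the 6 higher guidance regions, 2 were on chromosome 10.

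Enzymes of eicosanoid synthesis and interferon-response genes were likewise represented. The eicosanoid list had 6 of 39 genes with a higher region, among them the transporter gene Abcc1 (3.75 and 5.78), Ltc4s, the leukotriene B4 receptor gene Ltb4r1 (4.18 and 5.75) and the 5-lipoxygenase gene Alox5 (5.59 and 6.72). Of its 7 higher regions, 2 were on chromosome 10, both at Ggt1. Only Hpgd, which degrades prostaglandins, was lower (8.06 and 6.74). Of 55 interferon-response genes, 4 had a higher region, namely Irf8, Irf2 (3.14 and 5.64), Ifitm1 (4.15 and 6.61) and, on chromosome 10, Stat6 (7.23 and 7.95), and Ifi35 was lower (5.35 and 3.72). Among 14 genes that the study names as jointly repressed by HOXA9 and C/EBPα, 4 had a higher and none a lower promoter region: Mycn, Gata2, Havcr2 and Alox5. The study took the set from earlier published work and named these 14 as deregulated in its own dKO expression data. Their choice is therefore not independent of the study.

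Most members among cell cycle and apoptosis genes had small differences. Apart from Mycn, the cell cycle members were Cdkn2a, the locus of p16INK4a and p19ARF, and the kinase genes Cdk6 (8.93 and 9.59) and Cdk14 (8.09 and 8.70), and Plk2 was lower (7.83 and 7.19). At Cdkn2a, the region at the first start site differed by 0.65, from 7.37 to 8.02, but the one at a start site 12461 bp away by 2.11, from 3.25 to 5.36. Of 48 genes of the BCL2 family and apoptosis, 3 had higher regions and none had lower ones: Bcl2a1a, a survival gene (5.45 and 6.80), the caspase gene Casp8, and the proapoptotic Bbc3. Casp8 and Bbc3 had 2 regions each, with differences of 0.68 to 0.99.

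Other lists were balanced or tilted the other way. For cytokine and growth factor receptors, 6 of 77 genes had a higher region and 8 a lower one. The higher ones differed by 0.99 or less, the largest at Met, the hepatocyte growth factor receptor (6.30 and 7.29), whereas Igf2r had 6.64 in WT and 2.84 in dKO, and Il10ra 4.96 and 2.17 at one of its 2 regions. G-protein and cyclic AMP signalling genes comprised 3 with a higher and 5 with a lower region, with Gng2 (4.04 and 5.99) as the largest higher one and Rgs3 (6.49 and 3.66) as the largest lower one. The Rgs3 region lay 951 bp upstream of a start site that is 140848 bp from the first start site of the gene. In the Ras and MAP kinase list, 6 of 57 genes had a higher region, with differences of 0.67 to 1.05 and 3 of them on chromosome 10, and 4 had a lower one, such as Gab1 (5.47 and 2.17). Of the bZIP genes, Fosl1 (6.09 and 7.25), the C/EBP family member Cebpe (7.63 and 8.27) and Fosl2 (8.70 and 9.25) were higher, and Cebpb itself, which is deleted in dKO cells, had 8.60 in WT and 3.37 in dKO. Bach2 (4.90 and 2.95) was also lower.

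Chromatin, metabolic and secretory genes completed the lists. Crebbp, a histone acetyltransferase gene (2.85 and 4.98), Tet1 on chromosome 10 (5.21 and 6.34) and the remodeller gene Chd7 (6.16 and 7.14) had higher regions. In contrast, 3 neighbouring regions at the DNA methyltransferase gene Dnmt3a were lower by 1.26 to 1.59. The region with the largest of these differences lay at a start site 85217 bp from the first start site of the gene. Of 55 genes of glycolysis, the pentose phosphate pathway and hypoxia, 3 had higher regions, with Hk3, the hexokinase of myeloid cells, at 5.54 and 7.70 and 1 of the 4 regions on chromosome 10, and 3 had lower ones, among them the phosphoglycerate kinase gene Pgk1 (10.69 and 9.35). On the secretion list, Scamp5 (5.82 and 6.96) and, on chromosome 10, Stxbp5 and Stx11 were higher, and the synaptotagmin gene Syt7 was lower (7.98 and 7.25).

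**Figure D4:**
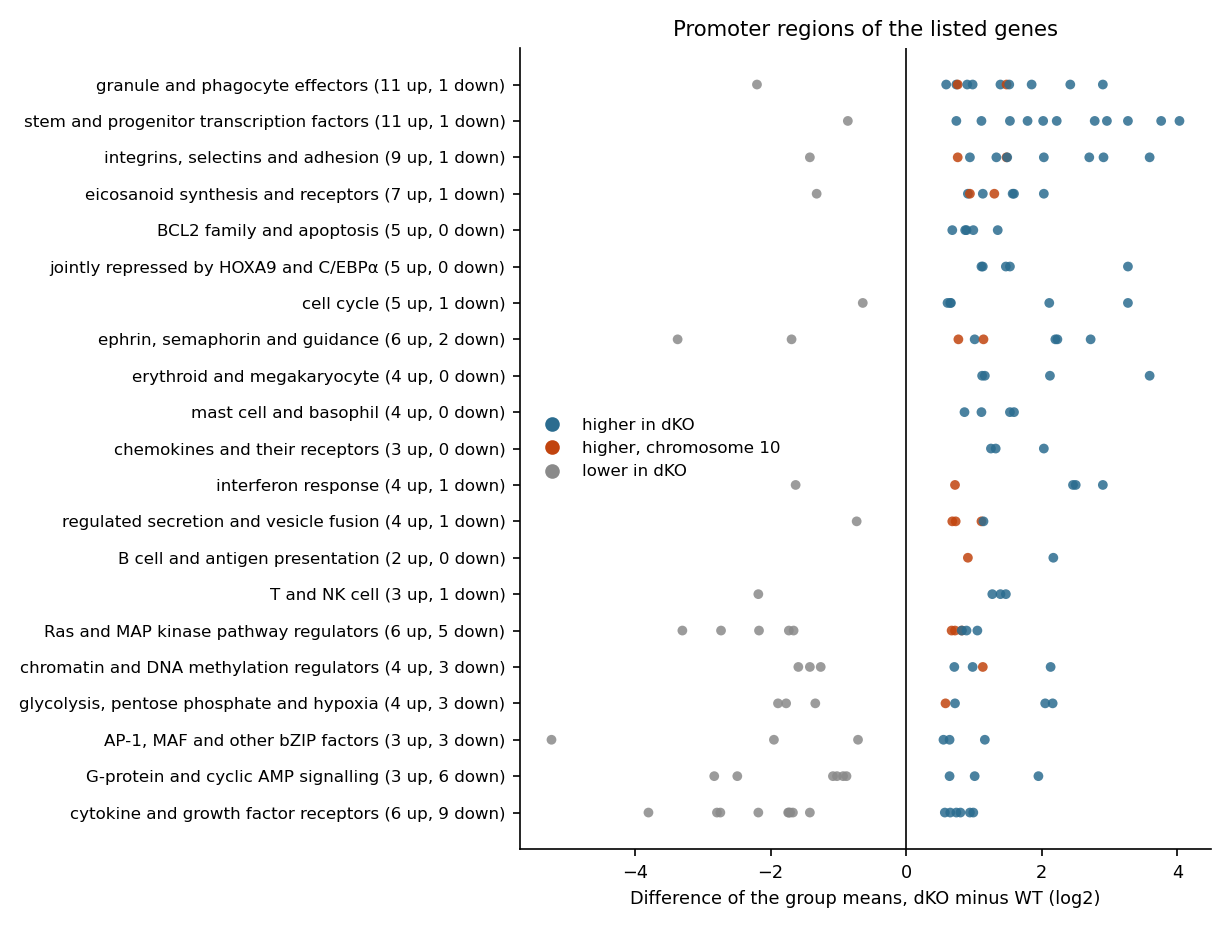
Difference of the group means, dKO minus WT (horizontal axis, log2), of every listed promoter region above the floor of the genes on each of the 21 lists, as 1 point per region, with the number of higher and lower regions in parentheses. The stem and progenitor factors have 11 higher regions and 1 lower one, whereas the higher cytokine receptor promoters stay at 0.99 or below and 9 receptor regions are lower.

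Promoter regions of the same gene differed in 1 direction with few exceptions. At 44 of the 607 genes, 2 or more member regions were found, most of them adjacent regions of a single promoter. Only 3 genes, named here after their values were seen, had both a member and a lower promoter region: Ccdc102a (differences of 1.37 and -1.36), the splicing factor gene Rbfox2 (1.51 and -2.41) and the RAS effector gene Rin1 (0.83 and -0.72). At Rbfox2, the member lay 153192 bp from the first start site. Sgk3, a kinase gene, had 4 member regions and Zeb2, a zinc finger repressor gene, had 3, likewise singled out afterwards. The Zeb2 region at the first start site had 4.33 in WT and 7.27 in dKO, whereas that at 7151 bp from it had 6.80 and 7.72.

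In position, no difference was detectable between all members and the promoters that were lower in dKO. The region covered the start site at 460 of 656 members (70.1%) and at 373 of 525 lower promoters (71.0%), a difference of -0.93 percentage points (95% Newcombe interval -6.11 to 4.33). Another 102 members lay upstream and 94 downstream. On chromosome 10, 82.4% of members covered the start site, against 67.9% of the other members (difference 14.5 points, 5.16 to 21.8). The nearest start site was over 1 kb from the first one of its gene at 158 members or 24.1%, against 22.1% of lower promoters (difference 1.99 points, -2.88 to 6.77). Start sites on both strands lay within 1 kb of 25 members, or 3.81%, and of 2.67% of lower promoters (difference 1.14 points, -0.99 to 3.20). Regions were 556.5 bp wide in the median, and lower promoters 526 bp.

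In base composition, fewer members than lower promoters were CpG-rich, depending on the definition. With CpG-rich defined as an observed/expected CpG ratio of at least 0.6 and a GC content of at least 50% over the central 200 bp, 302 of 656 members (46.0%) were CpG-rich, against 296 of 525 lower promoters (56.4%). The difference was -10.3 points (-15.98 to -4.61), and without chromosome 10 it was -13.7 points (-19.6 to -7.66). Of the windows at 21871 protein-coding start sites, which lie at start sites rather than at region centres, 48.8% met the same definition. With a ratio of at least 0.75 and a GC content of at least 55%, the difference was -3.76 points, with an interval that included 0 (-9.28 to 1.76). Chromosome 10 members were CpG-rich in 67.6% and the other members in 42.1%, a difference of 25.6 points (15.2 to 34.8). The difference of the levels was smaller at CpG-rich members (median 0.92, n = 302) than at CpG-poor members (median 1.33, n = 354), and CpG-rich members had a higher median WT level (6.67 against 5.25).

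AP-1 and PU.1 motifs set the members apart from lower promoters most clearly. An AP-1 match within the central 200 bp, as printed above for Kcnn4, occurred in 67 of 656 members (10.2%), in 1.33% of lower promoters and in 2.77% of all start site windows. Windows of members and lower promoters lay at region centres and those over all genes at start sites, so the latter share is taken at unlike positions. The difference between members and lower promoters was 8.88 points (95% Newcombe interval 6.37 to 11.5). PU.1 matches occurred in 7.16% of members, 1.33% of lower promoters and 2.29% of all windows, a difference of 5.83 points (3.61 to 8.17). RUNX matches were found in 5.95%, 3.24% and 3.06%, with a difference of 2.71 points (0.26 to 5.11), whose lower bound fell under 0 under several alternatives. On chromosome 10, AP-1 occurred in 4.90% of members and PU.1 in 3.92%, against 11.2% and 7.76% of the other members. RUNX occurred in 7.84% against 5.60%, and C/EBP in 6.86% against 13.0%, and each interval of these differences included 0. Regions are not replicates, 18 motifs were compared without adjustment, and the intervals describe the listed regions only.

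C/EBP matches were common in both directions. They occurred in 12.04% of members and 15.4% of lower promoters, a difference of -3.39 points (-7.43 to 0.54), and in 9.49% of all windows. The difference was -8.15 points (-12.1 to -4.27) with promoters taken up to 2 kb and 0.20 points (-5.02 to 5.36) over the whole region. Among distal regions that were higher in dKO (n = 5177), more than 1 kb from any protein-coding start site, the shares were 28.4% for AP-1, 14.1% for PU.1, 14.7% for RUNX and 21.4% for C/EBP, all above those of the members. Of the other 14 motifs, the interval of the difference excluded 0 for CTCF alone, with 0.76% of members and 2.86% of lower promoters (difference -2.09 points, -3.95 to -0.59).

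The AP-1 and PU.1 differences were found in the CpG-poor regions. There, AP-1 matches occurred in 17.8% of members and 1.75% of lower promoters (difference 16.05 points, 11.5 to 20.5), and PU.1 matches in 12.7% and 1.75% (difference 10.97 points, 6.90 to 14.98). In CpG-rich regions the AP-1 shares were 1.32% and 1.01% (difference 0.31 points, -1.78 to 2.45), and those of PU.1 0.66% and 1.01% (difference -0.35 points, -2.33 to 1.49). Within CpG-poor regions, C/EBP matches were less frequent in members, with 17.8% against 27.1% (difference -9.28 points, -16.4 to -2.41). Members that did not cover the start site carried AP-1 in 19.9% and PU.1 in 14.3%, against 1.32% and 3.95% of lower promoters that did not cover it. For regions that covered it, the shares were 6.09% and 4.13% in members, against 1.34% and 0.27% in lower promoters. AP-1 matches were found in 13.2% of members with at least 2-fold differences and in 5.73% of the others, a description since the rule used the difference. At least 1 of the 4 motifs was present in 196 members, and 460 or 70.1% had none, compared with 81.0% of lower promoters.

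**Figure D5:**
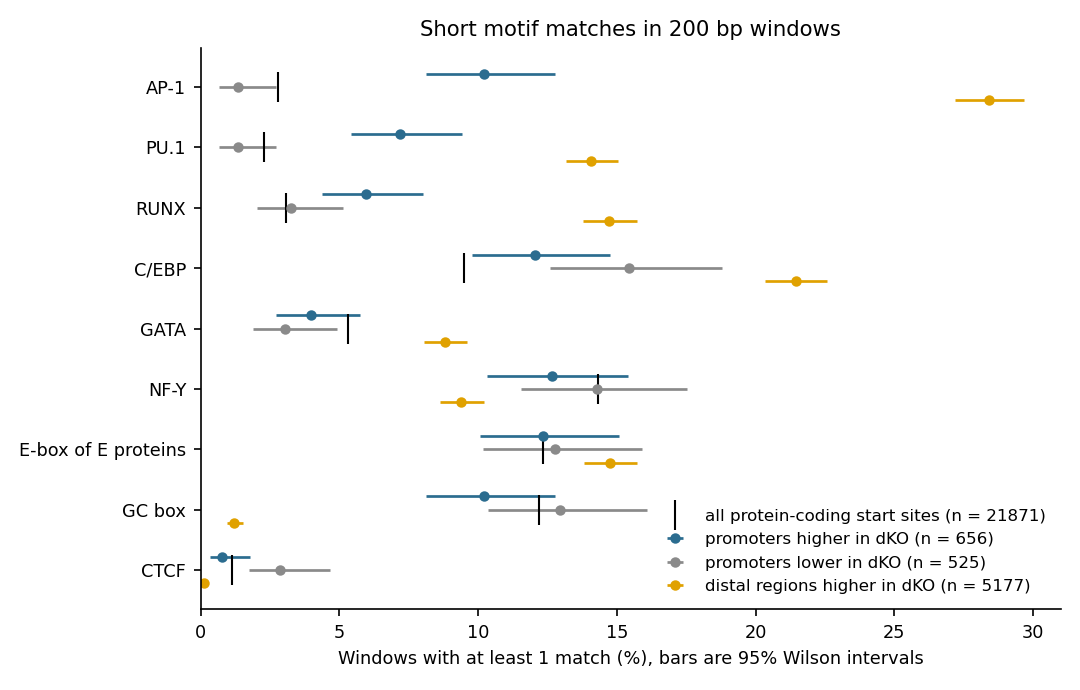
Percentage of 200 bp windows with at least 1 match of 9 of the 18 motifs (horizontal axis) in promoters higher in dKO, promoters lower in dKO and distal regions higher in dKO, with 95% Wilson intervals as bars, and at all protein-coding start sites as black ticks. For AP-1 the members sit at 10.2%, above the lower promoters at 1.33% and all start sites at 2.77% and below the distal regions at 28.4%.

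The borders of the selection were not marked by a gap in distance. The member farthest from its start site, at Kremen2, lay at 996 bp, and the nearest region left out, at Olfr111, at 1013 bp. The member with the smallest difference, at Pofut2, differed by 0.49 (512 and 719 normalised reads), and the promoter region nearest to it on the other side, at Gtf2i, by -0.53. Only regions past the threshold of the authors are listed, so smaller differences of either sign do not occur. Fgf22, with 1.54 in WT, was the member closest to the floor, and a region at March11, with 1.20 in WT and 4.31 in dKO, fell just outside.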

How the data were processed

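ATAC-seq libraries were preprocessed by the authors with PiGx, aligned to mm10 with Bowtie 2, and peaks were called with MACS2 and compared with DiffBind 2.14.0 at a corrected P-value of 0.05. Handling of duplicates and the Tn5 offset are not given in the sources used here. Kept duplicates would raise strong regions. The deposited table holds log2 means of normalised reads per group, as made by the authors, for the listed regions only. Its columns of the authors' own fold changes, p-values and FDR were not used. Both deposited files were identical, so dKO-LAP* was not analysed. The study states an average read number over its samples, and the depth of each library was not known. The lowest log2 level, -0.15, was taken as 1 read per library, which puts 3 reads at 1.43.

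Start sites came from GENCODE M21 (58797 protein-coding transcripts) and bases from GRCm38.p6, whose chromosome lengths cover all regions. Python 3.11.15 with pandas 2.3.3 and pysam 0.24.0 was used, and the search, the assignment and the intervals were tested on simulated data. Motifs were counted as exact strings on both strands of the central 200 bp. A gene was placed on a list by any of its start sites within 1 kb. Named were the 10 largest differences outside chromosome 10 and the 5 on it, the 5 highest dKO levels, up to 4 higher and 2 lower examples per list, and the members at each border, except 1 member that is not reported here. In some lists, further members with smaller differences or on chromosome 10 were named as well. The members and lists were chosen with earlier results of these data known. Shares have 95% Wilson intervals, and differences of shares have Newcombe intervals, which cover counting error over regions only. Alternatives concerned the distance, transcripts, floor, difference, chromosomes, centring, motif window and CpG definition. Restrictions to CpG-rich, CpG-poor, covering or non-covering regions were added after the data were seen.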

Additional observations from a re-analysis of the deposited data

How the results depend on the processing

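No paired analysis was possible because each group has a single mean and no library has a value of its own, and for the same reason no replicate could be left out. The 656 members became 394 with a difference of at least 1 and 400 after centring on the median difference of all listed regions (0.98). The share of promoter regions higher in dKO, 55.5%, became 48.3%, 52.3% and 34.1% with a difference of at least 1, without chromosome 10 and after centring, which turns every member with a difference under the median by construction. The RUNX difference of 2.71 points had an interval reaching under 0 at a distance of 500 bp (2.54), with a difference of at least 1 (2.06), without chromosome 10 (2.24), on autosomes only (2.37), in the central 100 bp (1.68), in CpG-poor regions (1.92) and in regions not covering the start site (1.73). The C/EBP difference of -3.39 points had an interval below 0 at 2 kb (-8.15), with a difference of at least 1 (-4.88), in CpG-poor regions (-9.28) and in regions not covering the start site (-13.6), but was 0.20 in the whole region and 0.73 in regions covering the start site, with intervals that included 0. In CpG-rich regions the AP-1 difference was 0.31 points and the PU.1 difference -0.35 points, the latter opposite in sign. The CpG-rich difference of -10.3 points was -3.76 points with a ratio of at least 0.75 and a GC content of at least 55%, with an interval from -9.28 to 1.76. In the other alternatives, AP-1 ranged from 4.75 to 18.6 points and PU.1 from 3.86 to 10.97 points, and all of their intervals lay above 0. The cause of these changes was not tested. Counts of reads per library were not at hand, so counting error of single regions could not be given.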
